A study of Mus musculus with 6 samples.

Results

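The comparison of Dnmt3a-null (KO) with wild-type (WT) neural stem cells kept in growth factors rests on 4 of the 6 arrays of the series. These are the arrays whose titles call the cells proliferating and undifferentiated, and each held RNA of WT cells in one dye and of KO cells in the other. The cultures came from the lateral ventricle walls, labelled subventricular zone, of mice at postnatal day 14 to 21. They grew as adherent layers in serum-free medium with FGF-2 and EGF at 10 ng/ml each. According to the labels over 95% of the cells carried Nestin and Sox2, and RNA was taken after 2 to 3 passages as biological replicates. KO RNA (500 ng per label, as for WT) carried Cy5 on replicates 1 and 3 and Cy3 on replicates 2 and 4. The remaining 2 arrays set the same genotypes against each other in cells replated with mitogen for 2 days and then kept without it for 3 days. The labels do not say which part of Dnmt3a was removed, nor how many animals made up each culture, so p-values measure the spread between these cultures. In such RNA, fewer cells of a type and less RNA per cell cannot be told apart.

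Dnmt3a is one of the enzymes that place new methyl groups on cytosine, mostly where it stands before guanine (CG), and methylation at promoters is known to go with silence of the gene. It also methylates regions between and within genes, and in postnatal neural stem cells it has been linked to the activity of neurogenic genes and to the balance with Polycomb repression. Stem cells of the subventricular zone give rise to olfactory interneurons, astrocytes and oligodendrocytes, and FGF-2 and EGF hold them in division.

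Ratios are log2 KO over WT on each array, so that 1 stands for a 2-fold level in KO cells, and a value with an error is the mean ± SD of the 4 arrays (n = 4). A gene passed when limma's Benjamini-Hochberg adjusted p over 18062 genes was under 0.05. The SD holds any dye effect between replicates 1 and 3 on one side and 2 and 4 on the other, which the fit takes out with a dye term. Both label markers were bright in both genotypes. Nes, the intermediate filament Nestin, had mean log2 signals of 14.5 in KO and 14.2 in WT cells, and the transcription factor Sox2 had 12.6 in both. Neither passed (adjusted p = 0.285 and 0.941).

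The 4 arrays did not all behave alike. Across tested genes, which are not replicates, the ratios of replicates 2, 3 and 4 correlated with each other at r = 0.418 to 0.489, and those of replicate 1 with the others at r = 0.046 to 0.265. On replicates 3 and 4 the WT channel held more Xist, which is made from the inactive X (ratios -1.41 and -2.28), and the KO channel more of the Y-linked Ddx3y (ratios 2.41 and 2.94), while replicates 1 and 2 lay between -0.12 and 0.01 for both. On replicates 3 and 4 the cells of the genotypes thus differed in sex-linked RNA as female WT and male KO cells would, and sex and genotype cannot be told apart on these arrays. All 4 arrays share 1 slide, and the differentiating arrays lie on another. Dnmt3a itself had ratios of -1.11, -0.98, -0.64 and -1.1 on replicates 1 to 4 at its brightest probe (-0.96 ± 0.22, adjusted p = 0.0219, or 0.0532 to 0.116 with any array left out other than proliferating replicate 1). At another probe the ratios were -1.66, -1.51, -1.94 and -1.57, and at the dimmest they were -0.66, -0.69, -0.61 and -0.49. All 3 probes were thus lower in KO cells on every proliferating array. It is not known here which of them lie in the removed part, and signal remained.

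Of 18062 genes tested, 111 rose and 61 fell in KO cells, 0.615% and 0.338%, or 0.952% together. At an unadjusted p under 0.05 in the same fit there were 2885 of the 18062, in either direction. The list counts given below at that threshold are to be read beside this number. All 172 had the same sign on all 4 arrays, as did 18.3% of all genes tested. The median ratio was 1.18 for the genes that rose and -0.90 for those that fell. At least a 2-fold change was seen for 74 of those that rose and 23 of those that fell, and at least a 4-fold change for 19 and 1, Eya1. WT signal was well above background on all 4 arrays for 73 of the 111 genes that rose (65.8%) and for 59 of the 61 that fell (96.7%), against 80.2% of all genes tested. With median centring in place of loess the split was 105 to 30. Every call rests on 6 arrays that share 1 estimate of spread. Without proliferating replicate 2, 3 or 4 limma passed 30, 4 and 35 genes, and without replicate 1 it passed 171, of which 92 were among the 172. Without both replicates 3 and 4 it passed 214, 81 of them among the 172. Without either differentiating array, or with the proliferating arrays fitted alone, it passed 0 (2275 at an unadjusted p under 0.05).

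**Figure D1:**
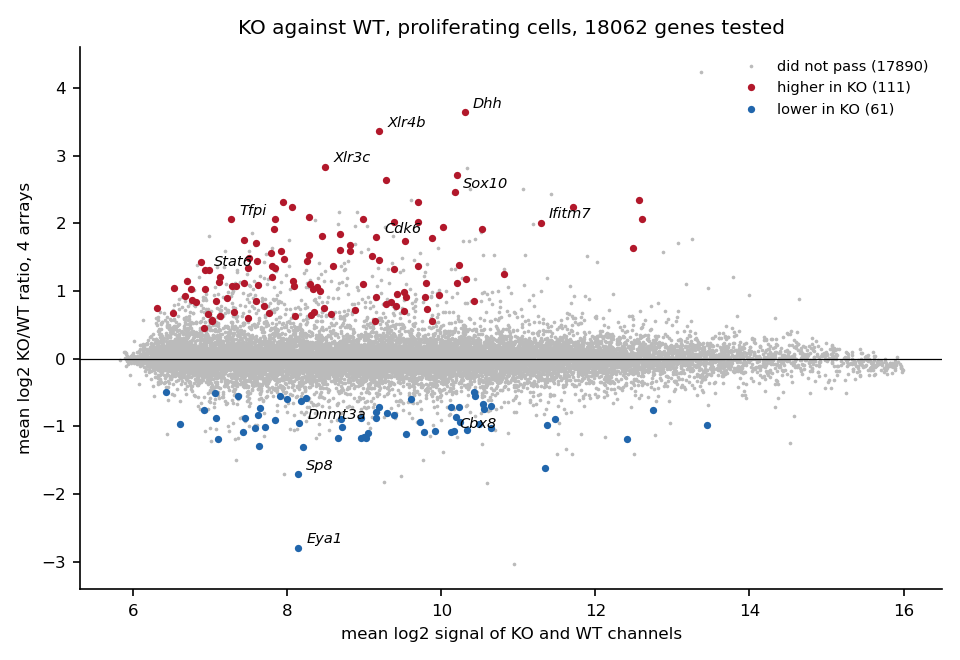
Mean log2 KO over WT ratio of each of the 18062 genes tested (y axis, mean of 4 proliferating arrays) against the mean log2 signal of both channels (x axis). Red points mark the 111 genes that rose and blue points the 61 that fell; the red points reach 3.64 (Dhh) and the blue ones -2.79 (Eya1).

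Genes of the oligodendrocyte lineage and of peripheral glia were among the largest rises. Sox10, the transcription factor that specifies myelinating glia in brain and nerve, had ratios of 2.76, 1.73, 2.72 and 2.63. It was raised on every array, least on replicate 2. Nkx2-2, a homeodomain factor of oligodendrocyte precursors, had 0.94, 1.99, 2.30 and 2.54 and was lowest on replicate 1. Of 12 transcription factors of the lineage tested, these 2 rose and none fell, while Olig2 stood at -0.12 (adjusted p = 0.664) and Sox8 at -0.39 (adjusted p = 0.334). Of 18 precursor markers 2 rose and none fell, and at an unadjusted p under 0.05 the counts were 6 higher and 1 lower. Those that rose were Gpr17, a receptor of precursors about to differentiate (2.08, 1.94, 2.61 and 2.76), and Matn4, a matrilin of the extracellular matrix (2.06 ± 0.79, adjusted p = 0.0248). The summed signal of the 18 precursor markers had log2 KO over WT ratios of -0.77, 0.52, -0.91 and 0.56 on replicates 1 to 4. The sign of this ratio went with the dye, below 0 where KO RNA carried Cy5 (replicates 1 and 3) and above 0 where it carried Cy3. Ptprz1, one of the 18, had ratios of -1.34, 0.81, -1.15 and 0.90. The ribosomal protein gene Rps2, which is not on this list, had -0.99, 0.86, -1.06 and 0.90. The sum is therefore not read as a difference between the genotypes, and a dye effect on it was not tested. For the 12 transcription factors the ratios of the sums were 0.06, 0.17, -0.41 and 0.66. Lims2, a focal adhesion adaptor whose probe lies 15.4 kb from that of Gpr17, rose with it (1.64, 2.07, 2.14 and 2.24).

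Of 23 myelin genes 1 rose, none fell and 21 had a mean ratio above 0. The gene that rose, Bcas1, found in oligodendrocytes that begin to myelinate, had ratios of 1.49, 2.22, 1.03 and 3.52. Ratios were above 0 on all 4 arrays for 15 of the 23, against 9.84% of all genes tested. At an unadjusted p under 0.05, 16 were higher (2885 of all 18062 genes in either direction). Their median was 0.76, with 0.28, 0.59, 0.58 and 1.31 on replicates 1 to 4, against -0.01 over all genes. Mbp, a main protein of myelin, had ratios of 1.01, 3.21, 3.93 and 3.15 (mean 2.83, adjusted p = 0.0796), and replicate 1 was the lowest. The summed signal of the 23 genes ran from 20921 to 35174 in WT and from 43930 to 114670 in KO channels. How many other gene sets separate in this way was not counted. The log2 ratios of the sums were 0.62, 0.95, 1.07 and 1.81 on replicates 1 to 4. Without Bcas1 they were 0.45, 0.63, 1.08 and 1.59. Mog, a protein of mature myelin, was not well above background in either genotype on any of the 4 arrays.

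Dhh, a hedgehog ligand made by Schwann cells and gonads, had the largest mean rise of a gene that passed, with 3.03, 4.26, 4.78 and 2.49 (adjusted p = 0.0276). Pou3f1, a POU factor of the promyelinating stage of Schwann cells, had nearly the same ratio on every array, with 2.32, 2.21, 2.34 and 2.11 (adjusted p = 0.0111). Together with Sox10 these were the 3 of 19 tested markers of Schwann cells and neural crest that rose. None fell, 9 of the 19 had a mean above 0, and the median was -0.02. Among the others, the receptor Erbb3 stood at 0.75 (adjusted p = 0.107), and Ngfr at -0.17 and Cdh19 at -0.14 did not pass. The summed signal of these markers was higher in KO cells by a log2 ratio of 1.33, 0.45, 1.67 and 0.15 on replicates 1 to 4 (14799 to 35724 in WT, 28359 to 57403 in KO). Without the 3 genes that rose, the ratio for the other 16 was 1.03, -0.46, 0.06 and -0.21, so the genes that passed carry most of the sum outside replicate 1. Whether peripheral glia contributed was not tested. Of 18 hedgehog pathway genes Dhh alone passed, and of 10 POU factors Pou3f1 alone.

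**Figure D2:**
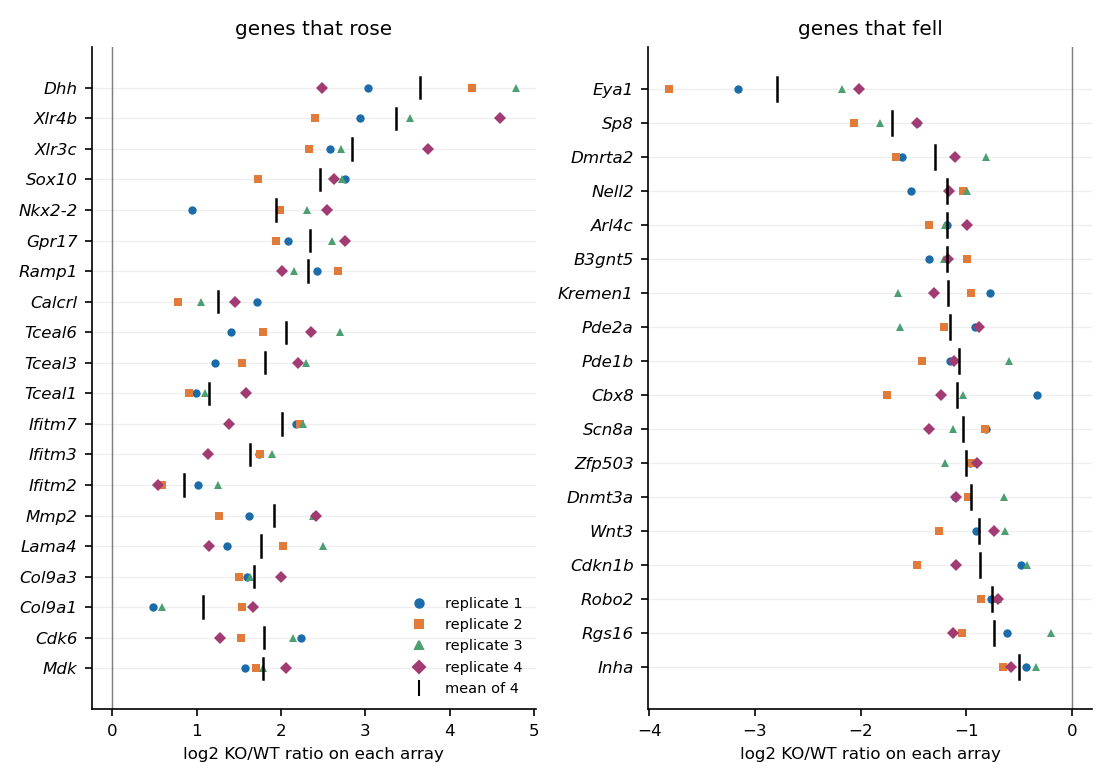
Log2 KO over WT ratio on each of the 4 proliferating arrays (symbols) and their mean (bar) for 20 genes that rose (left) and 18 that fell (right), ordered by group. Each gene lies on one side of 0 on all 4 arrays, and Nkx2-2, Cbx8 and Cdkn1b show the wide spread between arrays that the SD reports.

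Xlr4b and Xlr3c, members of an X-linked, lymphocyte-regulated family known to hold an imprinted cluster, had ratios of 2.94, 2.40, 3.53 and 4.59 and of 2.58, 2.33, 2.71 and 3.74. Both were highest on replicate 4, and on replicates 1 and 2, where the ratios of Xist and Ddx3y were near 0, they still averaged 2.67 and 2.46. The third family member tested, Xlr5d, stood at 0.12 (adjusted p = 0.712). Small X-linked genes related to a transcription elongation factor also rose, 3 of 5 tested. They were Tceal6 (1.41, 1.79, 2.70 and 2.35), Tceal3 (1.22, 1.54, 2.29 and 2.20) and Tceal1 (1.00, 0.91, 1.1 and 1.59), and no array had WT signal of Tceal1 well above background. All 3 were higher on replicates 3 and 4, the arrays with unequal sex-linked RNA (means of 2.53, 2.25 and 1.35) than on 1 and 2 (1.6, 1.38 and 0.95). Tceal8 (0.20, adjusted p = 0.326) and Tceal9 (0.05, adjusted p = 0.867) did not pass. The other X-linked genes that rose were BC096458 (1.01 ± 0.17) and Gpc3, a glypican that binds growth factors (0.66 ± 0.24). In all, 7 of 613 X-linked genes tested rose and none fell. The share that passed, 1.14%, is near the 0.952% of all genes and below that of several autosomes (1.65% on chromosome 1). Without replicates 3 and 4, 5 of the 7 passed. Copies of Xlr and Tceal genes are much alike in sequence, so a probe may read more than 1 of them.

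The promoter sequences of these genes are shown for the CG they hold, since CG is where Dnmt3a mainly acts. The 250 bases before the start of the gene follow for Xlr4b, Xlr3c, Tceal6 and Tceal1, taken from RefSeq on GRCm38.p6, 5′ to 3′ on the strand of the gene, with every CG in capitals. The windows are chrX:73214083-73214332 (plus strand) for Xlr4b, chrX:73265391-73265640 (minus) for Xlr3c, chrX:135210688-135210937 (minus) for Tceal6 and chrX:136707732-136707981 (plus) for Tceal1, and they hold 8, 6, 4 and 6 CG.
Xlr4b: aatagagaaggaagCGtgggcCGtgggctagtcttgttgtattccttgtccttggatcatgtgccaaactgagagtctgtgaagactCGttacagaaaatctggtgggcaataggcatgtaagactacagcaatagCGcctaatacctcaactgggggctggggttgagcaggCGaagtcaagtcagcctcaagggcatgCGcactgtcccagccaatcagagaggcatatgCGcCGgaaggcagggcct
Xlr3c: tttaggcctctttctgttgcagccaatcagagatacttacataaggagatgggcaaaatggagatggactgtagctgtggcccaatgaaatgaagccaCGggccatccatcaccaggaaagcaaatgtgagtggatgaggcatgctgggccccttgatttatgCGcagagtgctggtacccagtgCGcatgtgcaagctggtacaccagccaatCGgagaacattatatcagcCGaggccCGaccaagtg
Tceal6: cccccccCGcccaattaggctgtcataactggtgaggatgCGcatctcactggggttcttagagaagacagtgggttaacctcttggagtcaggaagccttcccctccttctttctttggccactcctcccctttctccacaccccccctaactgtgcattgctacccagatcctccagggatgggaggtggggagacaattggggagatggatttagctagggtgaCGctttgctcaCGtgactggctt
Tceal1: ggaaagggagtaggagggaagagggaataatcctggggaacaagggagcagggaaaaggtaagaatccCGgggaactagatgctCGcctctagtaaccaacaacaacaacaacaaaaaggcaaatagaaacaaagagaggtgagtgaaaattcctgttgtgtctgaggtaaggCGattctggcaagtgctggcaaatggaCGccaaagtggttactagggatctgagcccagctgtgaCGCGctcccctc
The same stretch is shown for Dhh (chr15:98898541-98898790, minus strand, 9 CG) and Stat6 (chr10:127642736-127642985, plus strand, 6 CG), which rose, and for Cdk6 (chr5:3343643-3343892, plus strand, 22 CG) and Cbx8 (chr11:119040914-119041163, minus strand, 22 CG) for comparison, the first of which rose and the second fell.
Dhh: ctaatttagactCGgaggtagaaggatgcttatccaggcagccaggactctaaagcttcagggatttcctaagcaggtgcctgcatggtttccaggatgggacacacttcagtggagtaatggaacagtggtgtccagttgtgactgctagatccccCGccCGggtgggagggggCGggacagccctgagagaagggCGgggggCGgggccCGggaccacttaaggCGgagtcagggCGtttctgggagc
Stat6: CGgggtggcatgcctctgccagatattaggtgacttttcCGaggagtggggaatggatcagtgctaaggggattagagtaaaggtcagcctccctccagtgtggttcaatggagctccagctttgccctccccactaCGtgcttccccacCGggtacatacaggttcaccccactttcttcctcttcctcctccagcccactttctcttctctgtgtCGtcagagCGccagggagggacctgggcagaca
Cdk6: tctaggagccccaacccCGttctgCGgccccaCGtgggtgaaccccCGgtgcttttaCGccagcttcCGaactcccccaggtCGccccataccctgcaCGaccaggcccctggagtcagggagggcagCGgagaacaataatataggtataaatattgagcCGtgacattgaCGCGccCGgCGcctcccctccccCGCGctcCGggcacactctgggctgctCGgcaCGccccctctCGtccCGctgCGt
Cbx8: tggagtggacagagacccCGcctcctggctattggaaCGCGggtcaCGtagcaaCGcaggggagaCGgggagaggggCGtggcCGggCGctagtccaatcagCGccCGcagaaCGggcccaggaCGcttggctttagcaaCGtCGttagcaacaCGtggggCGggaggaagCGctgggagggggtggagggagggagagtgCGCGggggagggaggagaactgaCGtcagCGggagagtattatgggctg
No entry was found for Sox10, Pou3f1, Eya1, Eya2 or Mansc1.

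Over whole windows of 300 bases (250 before and 50 after the start), CG was counted for the genes with exactly 1 window in that table, 53 of the 111 that rose and 29 of the 61 that fell, and 8556 of all genes tested. The search was for the letters CG, which read the same on both strands. The median was 15 CG for genes that rose, 19 for genes that fell and 20 for all genes tested. Fewer than 10 CG stood in 34%, 31.0% and 21.2% of them, and in 56.5% of all 32851 windows of the table. Among tested genes well above background in WT on all 4 arrays 14.7% had fewer than 10 CG, against 54.9% of those on 0 to 3 arrays. For the genes that rose the shares within these classes were 22.2% (8 of 36) and 58.8% (10 of 17). A CG count says nothing of methylation, which was not measured.

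A small group of genes was above background mainly in KO cells. The signal of 53 genes (0.293%) was well above background on all 4 KO channels and on at most 1 WT channel, and that of 12 (0.0664%) showed the reverse. Of the 53, 12 passed with limma, and their direction was largely set by the rule that chose them. Of the 12 with the reverse pattern none passed with limma. They include the beta protocadherin Pcdhb8, with ratios of -0.13, -0.40, -0.75 and -0.96 (limma adjusted p = 0.155), whose family is described below. Under the stricter rule of 4 channels against 0, the counts were 22 and 0. With 1 proliferating replicate left out, which leaves 3 channels to meet the rule, they were 122 to 160 and 41 to 89. For genes without WT signal on any array a lower bound is given, which sets the KO mean against the WT signal, raised to the dimmest signal still well above background where it was lower.

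Tfpi, the inhibitor of the tissue factor pathway of coagulation, was at least 4.17-fold higher, with ratios of 2.21, 2.23, 1.96 and 1.84 (adjusted p = 0.0111). Its log2 signals were 8.49, 8.56, 8.32 and 7.83 in KO and 6.28, 6.33, 6.36 and 6.0 in WT cells. Stat6, the transcription factor of interleukin-4 signalling, was at least 2.47-fold higher (1.16, 1.38, 1.38 and 1.30), and Mansc1, a membrane protein gene, at least 2.69-fold (1.42, 1.15, 1.64 and 1.5). Smaller lower bounds held for Tceal1 (2.22-fold), Cyba, a membrane subunit of the superoxide-forming NADPH oxidase (1.90-fold), Hs3st1, which sulfates heparan sulfate (1.82-fold), and the quinone reductase-like gene Cryzl2 (1.78-fold). Il1rl2, a receptor of the interleukin-1 family (1.14 ± 0.36), and Tspyl3 (1.21 ± 0.22) had WT signal on 1 array. The unnamed transcripts NAP108462-1, AK047112 and 2900006A17Rik make up the 12.

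**Figure D3:**
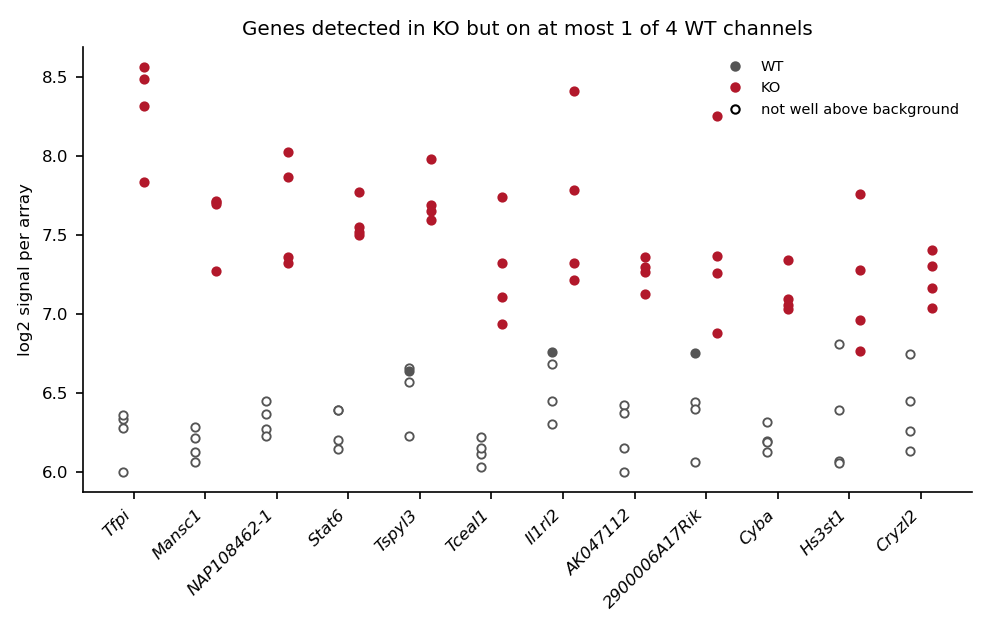
Log2 signal per array (y axis) of the 12 genes that passed with KO signal well above background on all 4 arrays and WT signal on at most 1; grey circles are WT and red circles KO, and open circles were not well above background. For Tfpi the KO mean is 8.30 and the WT mean 6.24.

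Ramp1 and Calcrl, which together form the receptor for calcitonin gene-related peptide, had ratios of 2.43, 2.67, 2.16 and 2.02 and of 1.72, 0.78, 1.05 and 1.46. Ramp1 was steady over the arrays, and Calcrl lowest on replicate 2 (adjusted p = 0.0111 and 0.0442). They were the 2 of 8 genes of that receptor system that passed. Mdk, the growth factor midkine, rose by 1.78 ± 0.21 with 1.57, 1.70, 1.79 and 2.06. Of 4 interferon-induced transmembrane genes 3 rose: Ifitm7 (2.17, 2.22, 2.26 and 1.38), Ifitm3 (1.74, 1.75, 1.90 and 1.13) and Ifitm2 (1.02, 0.59, 1.25 and 0.54), each lowest on replicate 4. Ifitm1 stood near 0 (adjusted p = 0.986). The family's copies are alike in sequence, and Ifitm3 was the only one of 31 interferon and antigen presentation genes that passed. The median of that list was -0.04 and 3 of its genes were higher and 4 lower at an unadjusted p under 0.05. Il1rl2 and Stat6, named above, and Unc93b1, which carries Toll-like receptors to endosomes (1.07 ± 0.27), also act in immune signalling. For Il1rl2 this rests on its brighter probe alone. Of 20 microglial markers on the arrays 5 were detected and tested, their summed ratio was between -1.15 and 0 on the 4 arrays, and Cx3cr1, Csf1r, Trem2 and P2ry12 were among those not tested.

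Of 85 matrix genes 4 passed, all of them higher, beside 0.615% higher and 0.338% lower among all genes tested. At so small a share of lower genes, their absence from this list says little. Mmp2, a gelatinase that cleaves basement membrane, had 1.62, 1.27, 2.38 and 2.42, and Lama4, a laminin chain of vessel and nerve basement membranes, had 1.36, 2.02, 2.50 and 1.15. WT signal was detected on 2 arrays for both. Col9a3 and Col9a1, chains of collagen IX, rose by 1.68 ± 0.22 and 1.07 ± 0.62, Col9a1 mostly on replicates 2 and 4. The median of all 85 was 0.04, and 37 of them were below 0. Of 13 fibroblast and meningeal markers tested none passed (6 were higher and 3 lower at an unadjusted p under 0.05), with a median of 0.45, and their summed signal was higher in KO cells by 0.76, 0.32, 2.36 and 0.97 (log2 ratio of sums on replicates 1 to 4). Col3a1, Lum and Dcn were among the 8 that were not tested. The part of such cells in the matrix changes was not tested.

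Cell cycle regulators moved singly. Cdk6, the kinase that drives the G1 phase with D cyclins, rose by 1.80 ± 0.47, with 2.24, 1.53, 2.14 and 1.28 (adjusted p = 0.0111), the only one of 23 G1 and E2F genes that passed. Inhibitors of cyclin-dependent kinases passed in opposite directions. Cdkn1c, which is imprinted and expressed from the maternal copy, had 0.53, 1.09, 1.15 and 1.17, and Cdkn1b, which holds progenitors in G1, had -0.48, -1.47, -0.43 and -1.09. Cdkn1b fell further on replicates 2 and 4, which carried KO RNA in Cy3, than on 1 and 3. The size of its fall rests on its brightest probe. Another Cdkn1b probe, above background in both genotypes on all 4 arrays, had only -0.23, -0.12, -0.01 and -0.07. From the list of imprinted genes, which does not hold the Xlr genes described above, 43 were tested and Cdkn1c alone passed. Of 37 mitosis genes none passed with limma, though 27 were higher and none lower at an unadjusted p under 0.05 (2885 of all 18062 genes in either direction). Their ratios were above 0 on all 4 arrays for 21 and on average for 36. The median was 0.32, with 0.32, 0.16, 0.25 and 0.50 on replicates 1 to 4, and it stayed between 0.26 and 0.41 under all alternatives. The 36 DNA replication genes had a median of 0.15, but -0.25 on replicate 1 against 0.12 to 0.40 on the others.

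Cbx8, a chromodomain protein of the repressive PRC complexes of the Polycomb group, which reads histone H3 trimethylated at lysine, fell. Its ratios were -0.33, -1.75, -1.03 and -1.24 (adjusted p = 0.046), and replicate 1 was the closest to 0. For Cbx8 the fall rests on its brighter probe. The other probe, above background in both genotypes on all 4 arrays, had 0.08, -0.38, 0.05 and -0.22. Its relatives Cbx2, Cbx6 and Cbx7 did not pass (-0.14, 0.18 and -0.30). Of 17 other genes of DNA methylation, demethylation and methyl-CpG binding none passed (1 was higher and 1 lower at an unadjusted p under 0.05). Other chromatin genes that passed were Cdyl2, a chromodomain protein (0.91 ± 0.24), Setd6, a lysine methyltransferase (0.70 ± 0.12), and Npm2, a histone chaperone of oocytes (-0.58 ± 0.18); these 3 were chosen after their values were seen, as were all genes named here that the rule for named genes did not take.

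Single regulators of forebrain patterning and neurogenesis passed, in both directions. Eya1, a transcriptional coactivator and phosphatase, had -3.16, -3.82, -2.17 and -2.02 and fell more on replicates 1 and 2 than on 3 and 4. Its relative Eya2 rose, with 0.88, 1.92, 1.89 and 1.75, so both paralogs passed in opposite directions. Sp8, a zinc finger factor of olfactory interneurons, had -1.47, -2.06, -1.82 and -1.46 and Dmrta2, a factor of the dorsal telencephalon, -1.6, -1.66, -0.82 and -1.1. Zfp503, a zinc finger factor of the striatal lineage, fell with little spread (-1.0 ± 0.14), and the nuclear receptor Nr2f2, of the caudal ganglionic eminence, rose by 2.09 ± 0.42. From the list of forebrain patterning factors Dmrta2 and Nr2f2 alone passed, in opposite directions. Of 23 neurogenic transcription factors Sp8 alone passed. Ratios were below 0 on all 4 arrays for 10 of the 23, against 8.43% of all genes tested, and the median was -0.17 (-0.11, -0.39, -0.30 and -0.21 on replicates 1 to 4). Pax6, a homeodomain factor of neurogenesis, just missed the threshold with ratios of -0.47, -1.65, -1.61 and -2.27 (adjusted p = 0.0503).

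Wnt signalling genes that passed both fell, 2 of 38. Wnt3, a ligand, had -0.90, -1.26, -0.63 and -0.74, with KO signal above background on 2 arrays, and Kremen1, which removes the co-receptor from the surface together with Dickkopf, had -0.78, -0.95, -1.65 and -1.30. Lrp4, a receptor related to the Wnt co-receptors that binds agrin at the synapse, fell too (-1.05 ± 0.74), mostly on replicates 2 and 4. Of 65 axon guidance genes 3 fell and 1 rose. The Slit receptor Robo2 had -0.76, -0.86, -0.70 and -0.70, the same on every array within a narrow range, and the ligand Efnb3 rose by 0.68 ± 0.17. Cntfr, the receptor subunit for ciliary neurotrophic factor, fell as well (-0.80 ± 0.38, adjusted p = 0.0442).

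The beta protocadherins, adhesion proteins that give each neuron its own surface and lie side by side in a cluster on chromosome 18, had lower ratios on every array. All 21 tested had ratios below 0 on all 4 arrays, against 8.43% of all genes tested, and their mean ratios ran from -1.18 to -0.28. At an unadjusted p under 0.05 all 21 were lower, and 7 passed over all genes. The 7 were Pcdhb21 (-0.98, -1.34, -0.93 and -0.62), Pcdhb17 (-0.88 ± 0.58), Pcdhb6 (-0.68, -1.1, -0.68 and -0.88), Pcdhb14 (-0.83 ± 0.18), Pcdhb5 (-0.79 ± 0.24), Pcdhb10 (-0.72 ± 0.18) and Pcdhb16 (-0.49, -0.50, -0.58 and -0.61). The largest mean fall, that of Pcdhb4, did not pass (adjusted p = 0.149). Its ratios were -0.42 and -0.60 on replicates 1 and 2 and -1.85 and -1.84 on 3 and 4. The median of the 21 was -0.56, with -0.40, -0.51, -0.58 and -0.75 on replicates 1 to 4.

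In the neighbouring alpha and gamma clusters no member passed. The 3 alpha members tested had a median of -0.04 and the 3 gamma members of -0.06, and 10 protocadherins outside the clusters had 0.04; none of these 16 passed (1, of the alpha cluster, was lower at an unadjusted p under 0.05). That the beta members differ from the other clusters was not tested as such. Under all alternatives run the median of the beta members stayed below -0.50, reaching -1.04 with Agilent's processed signals, and every member tested kept a value below 0. The number that passed was 12 with processed signals and 3, 0, 0 and 1 without replicate 1, 2, 3 and 4. Beta protocadherin genes are near copies of each other, so 1 probe may read several and the 21 values are not independent. In differentiating cells all 21 were below 0 as well, with a median of -0.37, and 1 passed. There, however, the 3 alpha and 3 gamma members were also all below 0 (medians -0.23 and -0.16), and the protocadherins outside the clusters had a median of -0.68, with 2 that passed as lower.

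**Figure D4:**
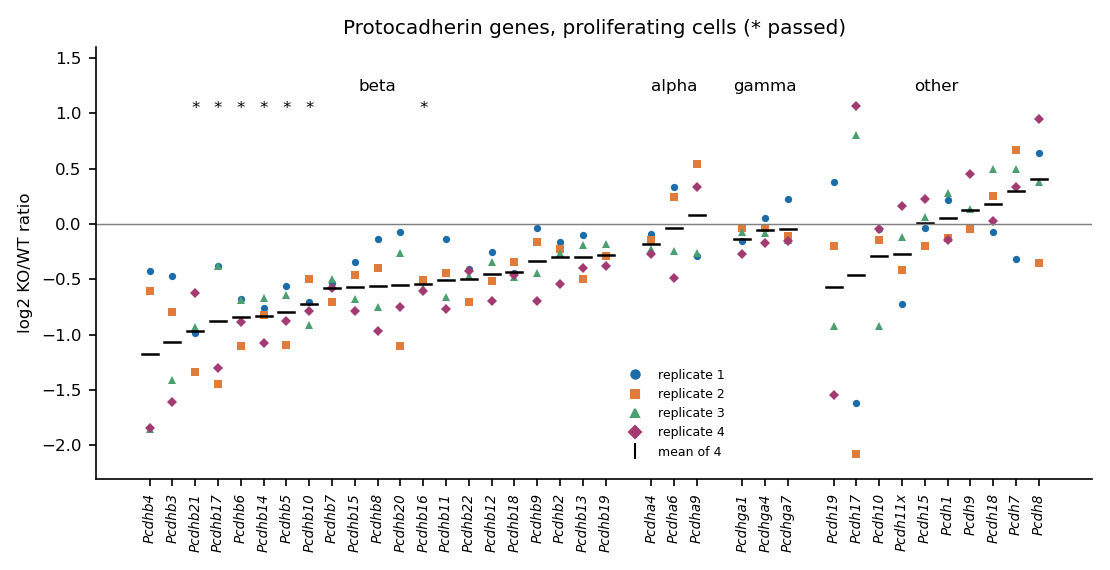
Log2 KO over WT ratio on each proliferating array (symbols) and mean (bars) for the protocadherin genes tested, by cluster; asterisks mark the 7 that passed. Every symbol of the 21 beta members lies below 0, while those of the other groups lie on both sides.

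Ion channels, receptors and signalling enzymes changed as single genes. Scn8a, a sodium channel of axons, had -0.81, -0.82, -1.12 and -1.36 and was the 1 of 26 sodium and calcium channels that passed. Ank3, the scaffold that gathers such channels at the axon initial segment, rose by 2.02 ± 0.40. The glutamate receptor subunit Grik4 rose (0.70, 0.65, 1.1 and 0.78), as did Cbln1, a secreted organiser of synapses (1.03 ± 0.24), and the glutamate transporter Slc1a1 (1.38 ± 0.30). Enzymes that break down cyclic nucleotides, Pde2a (-0.92, -1.21, -1.63 and -0.88) and Pde1b (-1.15, -1.42, -0.59 and -1.12), both fell. Rgs16, which shortens G protein signals, fell with -0.61, -1.04, -0.20 and -1.12, least on replicate 3. Of 36 potassium channel genes none passed (3 were higher and 4 lower at an unadjusted p under 0.05).

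Metabolic genes that passed did not belong to 1 pathway. Naprt, which makes NAD from nicotinic acid, had 2.49, 1.08, 1.90 and 1.91, and Acot11, an acyl-CoA thioesterase, rose by 1.53 ± 0.42. Elovl7, which lengthens fatty acids (1.37 ± 0.36), Ucp2, a carrier of the inner mitochondrial membrane (1.09 ± 0.28), and the SNARE protein Vamp8 (1.07 ± 0.09) rose as well. Gpd2, the mitochondrial glycerol phosphate dehydrogenase, fell with -1.57, -0.61, -1.21 and -0.20, more on replicates 1 and 3. Naaa, a lipid amidase (-0.63, -2.12, -0.55 and -1.40), and Pcsk5, a proprotein convertase (-0.30, -1.49, -0.52 and -1.76), fell more on replicates 2 and 4. KO RNA had the same dye on replicates 1 and 3, and the dye term of these genes did not pass (adjusted p = 0.191, 0.2 and 0.167). With 3 residual degrees of freedom, a dye term that did not pass cannot decide on a dye effect. The probes of Pcsk5 disagreed in sign. Of 76 respiratory chain genes, 78 cytoplasmic ribosomal protein genes and 21 glycolytic enzymes none passed (1 of each list was higher, and 3 glycolytic enzymes were lower, at an unadjusted p under 0.05).

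Some genes that passed lay close to another that passed. Of the 172, 46 had such a neighbour within 500 kb between probes, in 49 pairs. Of these pairs 21 joined beta protocadherins, and of the other 28 the direction was the same in 17 and opposite in 11, 7 of the latter joining a beta protocadherin to the transcript AK016576. On chromosome 2, Calcrl and Tfpi both rose and lie 123 kb apart. On chromosome 8 Cyba and Zfpm1, a cofactor of GATA factors (0.94 ± 0.31), rose 89.8 kb apart. On chromosome 1 Obsl1 (-1.09 ± 0.26), Inha, an inhibin chain (-0.50 ± 0.14), and the transcript AW822216 (-0.90 ± 0.36) fell within 23.4 kb. In opposite directions went Cdkn1b on chromosome 6, which fell, and Mansc1 and Hebp1, a heme-binding protein gene (1.37 ± 0.20), which rose on either side of it at 316 and 212 kb. Within 5 Mb of Dnmt3a, 38 genes including it were tested. None of the others passed with limma (8 at an unadjusted p under 0.05, beside 2885 of all 18062 genes). Gene density was not taken into account.

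Most other lists had few or no members past the threshold, against 0.952% of all genes. At an unadjusted p under 0.05 the number over all 18062 genes was 2885. Of 34 astroglial, 33 synaptic and 28 stem and radial glia genes none passed (6, 4 and 8 were higher and 8, 2 and 5 lower at an unadjusted p under 0.05), with medians of -0.06, -0.02 and -0.02. Of 30 genes of the neuronal cytoskeleton and RNA binding the growth cone protein Gap43 alone passed (1.63, 2.20, 0.94 and 1.32). Notch and BMP pathway genes (26 and 30 tested) held none (2 and 7 higher, 7 and 3 lower at an unadjusted p under 0.05). The EGF and FGF receptor pathway (30 tested), the IGF axis (10), caudal patterning factors (14), immediate early and stress genes (28) and cholesterol and fatty acid synthesis genes (31) held none either (9, 2, 2, 3 and 3 higher and 1, 1, 0, 3 and 0 lower at an unadjusted p under 0.05). Among markers of other cells the tissue could hold, none of 13 endothelial and mural, 13 ependymal and 8 choroid plexus genes passed (2, 3 and 3 higher and 0, 1 and 0 lower at an unadjusted p under 0.05). S100a1, a calcium-binding protein, was the 1 of 10 S100 genes that rose (0.91 ± 0.23). The germline and pluripotency list, which holds many genes silenced by methylation elsewhere, had 48 genes on the arrays, of which 18 were detected and tested, and none of them passed (4 higher and 0 lower at an unadjusted p under 0.05). Of 12 Hox genes none passed (4 higher, 0 lower at an unadjusted p under 0.05).

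**Figure D5:**
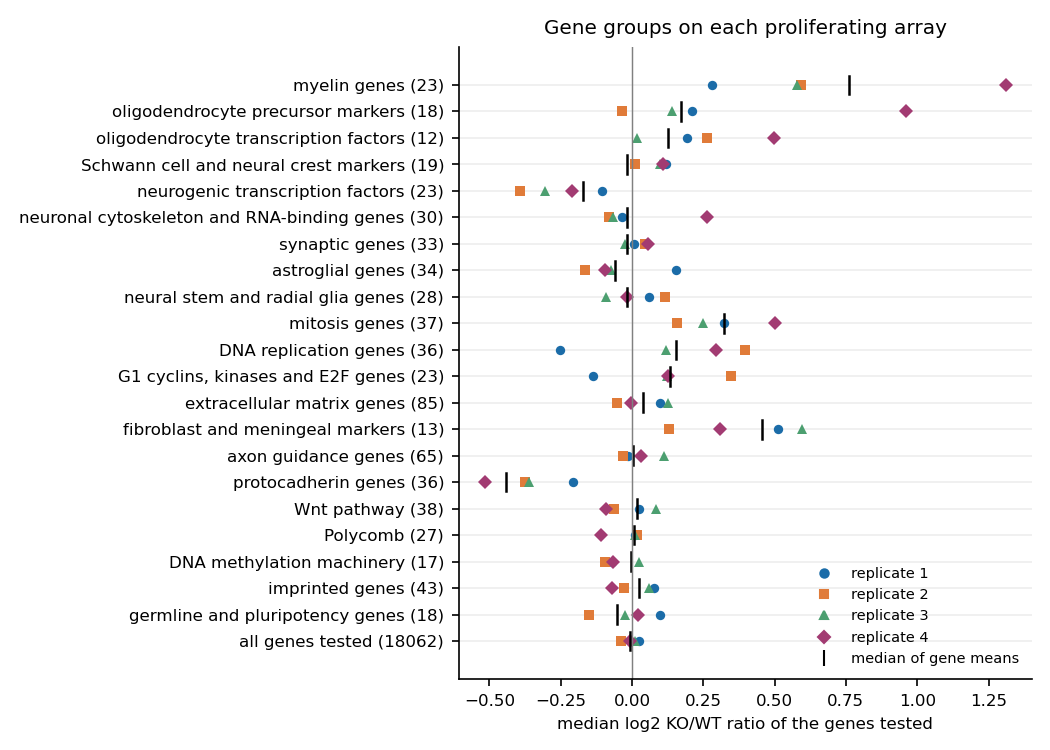
Median log2 KO over WT ratio of each gene group on each proliferating array (symbols) and of the genes' means (bars), with the number of genes tested in parentheses. Myelin (0.76), mitosis (0.32), fibroblast (0.45), neurogenic (-0.17) and protocadherin genes (-0.44) lie to one side of 0 on all 4 arrays, while DNA replication genes cross it.

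Set beside the differentiating cells, where 557 genes passed (3.08%), the KO effect differed for 9 genes by the test of the difference itself (0.0498%). Of the genes described here these were Cdk6 and Rgs16. Cdk6 stood at 1.80 ± 0.47 in proliferating and 0.08 in differentiating cells (difference -1.72, adjusted p = 0.0443). Rgs16 went from -0.74 ± 0.43 to 1.49 (difference 2.23, adjusted p = 0.0395). For Gpr17 the values were 2.35 ± 0.40 and 0.88 (adjusted p of the difference = 0.158), and for Tfpi 2.06 ± 0.19 and 0.79 (adjusted p of the difference = 0.101). Both conditions share 1 estimate of the spread and 1 dye term, and each lies on a slide of its own, so slide and condition cannot be told apart.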

How the data were processed

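RNA of WT and KO cells was hybridised to 6 two-colour Agilent arrays, 4 of them proliferating. The authors deposited scanner intensity values per spot, made with Agilent Feature Extraction 9.5.1.1 per the file headers (design 014868). They also deposited a table of log10 ratios, which equals the scanner's own log10 ratios turned to KO over WT. Intensities were corrected with normexp (offset 50) and loess in limma 3.58.1 (R 4.3.3), with control and outlier spots at weight 0. Repeat spots were averaged and the brightest probe stood for a gene. A gene was tested if 2 or more of the 6 arrays showed it well above background in either channel (18062 of 28786 gene names; 22951 of 41174 probes were named by accession). All 6 arrays were fitted with a coefficient per condition and a dye term, leaving 3 residual degrees of freedom, and p-values were adjusted by Benjamini-Hochberg. Levels are log2 signals per channel after loess and Aquantile. The number of arrays limits the precision, and 52.3% to 59.1% of gene spots per channel were above background.

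The members and lists were chosen with earlier results of these data known. The rule for named genes took Dnmt3a; the 36 largest rises and 36 largest falls that passed; up to 6 passing members of each list, or 2 as values where none passed; passing genes detected in 1 genotype, or within 500 kb of another or 5 Mb of Dnmt3a; Xist, Ddx3y, Nes and Sox2. On simulated data 200 of 18062 genes were changed, 100 at each size. The test recovered 83% of genes at a log2 change of 1 and 96% at 2, with 20 false calls. The simulated noise was independent between arrays, with spreads from the fit's own prior and without sex or slide effects. It therefore cannot show how many of the calls on the real arrays hold. Of 45 named passing genes with several probes above background, 44 had the same sign at every probe. Promoter sequences came from RefSeq (GRCm38.p6), matched by symbol. A few genes are not reported here.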

Additional observations from a re-analysis of the deposited data

Results flagged for a closer look

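Single arrays stood apart for 13 genes, with a gap to the nearest array that was large against the range of the 4. Dixon's criterion used here flags about 1 in 20 groups by chance, and all named genes were examined. Replicate 1 was the lowest for Eya2 (0.88) and Cdkn1c (0.53). Replicate 2 was the lowest for Sox10 (1.73). Replicate 4 was the lowest for Ifitm7 (1.38) and Nr2f2 (1.45), and the highest for Erbb3 (1.37), a neuregulin receptor of glia. The remaining values, as log2 KO over WT on the array that stood apart, were -0.71 for Palmd, -0.77 for Tesc, 0.85 for Thbs4, 0.16 for Pax8, -0.77 for Smad1, 1.51 for 2900006A17Rik and 0.99 for AK016576.

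The KO effect differed between conditions by the interaction test for Cdk6, by -1.72 (differentiating minus proliferating, adjusted p = 0.0443), and for Rgs16, by 2.23 (adjusted p = 0.0395). Without the differentiating arrays there is no such test, and each value there rests on 2 arrays.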

How the results depend on the processing

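Against 172 genes passed by limma, 278 passed with Agilent's processed signals, 295 with a normexp offset of 16, 270 with the authors' value table, 101 without the filter on dim probes and 0 with the proliferating arrays alone (2275 at an unadjusted p under 0.05). The cause of these shifts was not tested. With 1 array left out the count lay between 0 and 171, and without proliferating replicates 3 and 4 it was 214. Of 128 named genes that passed, 93 kept their call with median centring, 116 with array weights and 77 without the filter. Without proliferating replicates 1 to 4 it was 77, 26, 4 and 23. Proliferating and differentiating arrays share replicate numbers 1 and 2, which share only a number. With the replicate block 184 genes passed, all 172 among them (correlation 0.052). Dnmt3a stayed lower but did not pass with the proliferating arrays alone (-0.96, adjusted p = 0.116), and with 1 array left out its ratio was -1.05 to -0.85. Genes detected in KO cells alone numbered 22 under 4 channels against 0, and 122 to 160 with 1 replicate left out; in WT cells alone 0, and 41 to 89. The sign changed for 2 named genes that had not passed. Ddx3y was -0.056 without replicates 3 and 4, and Sox2 was 0.036 with median centring, -0.10 to 0.049 with 1 replicate left out and 0.12 without replicates 3 and 4. A slide block could not be fitted, since slide and condition coincide. Genes near background are limited by signal.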
